A study of Rattus norvegicus with 36 samples.

Results

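The gene expression response of H9C2 cells, a myoblast line derived from rat heart, to a trimmed form of miR-125b was compared between hypoxia and normoxia. The quantity reported is an interaction, that is, the log2 fold change of Trim AG against miR-125b in hypoxia minus the same log2 fold change in normoxia. Its members are 12 of the 36 samples in the series, taken by their labels. They form 4 groups of 3 libraries each: Hypoxia Trim AG, Hypoxia miR-125b, Normoxia Trim AG and Normoxia miR-125b. A positive interaction means that the ratio of Trim AG to miR-125b was higher in hypoxia than in normoxia, and a negative one that it was lower. The question was whether the difference between both mimics depended on oxygen.

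All 4 groups were transfected with 25 nmol/L of a synthetic mimic for 24 h before the exposure, so no group was free of a mimic. The labels number the trimmed mimics, and their Trim 2 is called Trim AG here after the bases it lacks. For the hypoxia groups the following 24 h were spent at very low oxygen in serum-free, low-glucose medium, whereas the normoxia cells received fresh medium under usual culture conditions. Oxygen, serum and glucose therefore changed together and cannot be told apart. H9C2 is a single line of embryonic origin that grows as myoblasts, and no labels state whether the 3 libraries of a group came from separate cultures. Muscle markers were low in these libraries, since the summed level of 7 cardiac and skeletal muscle genes lay between 66.5 and 239 CPM (a gene’s count scaled to a common library size), of which *Myod1*, a regulator of the muscle lineage, made up 26.1 to 147 CPM, and *Actc1*, the cardiac actin, stayed at or below 1.79 CPM. Markers of endothelial cells, leukocytes and epithelia summed to at most 3.95 CPM.

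MicroRNAs guide Argonaute proteins to messenger RNAs, mainly by pairing of the seed near their 5′ end, and lower the level or the translation of these targets. Forms that differ by a few bases at an end, named isomiRs, arise from imprecise cleavage or from later trimming and tailing. Loss of 3′ bases leaves the seed intact, but the 3′ end contributes to how the microRNA is held by Argonaute and how long it lasts. In hypoxia, cells stabilise HIF transcription factors that raise glycolysis and matrix enzymes, and shortage of oxygen or nutrients also activates the integrated stress response, in which ATF4 raises genes of amino acid supply.

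The mature sequences are shown because the compared mimics are described by the last bases they lack, with the seed (bases 2 to 8) in capitals. The first is rat miR-125b-5p from *Mir125b2* (RefSeq, GRCr8, chr11:29732588-29732609, plus strand), and the trimmed forms were derived from it by removing 1, 2 or 3 bases from the 3′ end.
miR-125b: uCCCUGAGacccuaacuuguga
Trim A: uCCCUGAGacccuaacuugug
Trim AG: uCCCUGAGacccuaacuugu
Trim AGU: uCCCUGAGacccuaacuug
As derived, the seed is identical in the 4 sequences, and Trim AG is 20 bases long where miR-125b has 22. The sequences of the mimics as ordered are not given in the sources used here.

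The 3 Hypoxia Trim AG libraries held 39940087 to 42672584 counts, 1.40 times the mean of the other 9, which held 28690101 to 30994490. Replicates 1 and 2 of that group differed most among the pairs of libraries of 1 group (chi-square per gene of 101, against 4.86 to 35.9 for the other pairs), and the share of counts on mitochondrial genes was 3.52% to 5.29% in them against 3.44% to 3.80% in the others. A further library went against its group. *Cav1*, which encodes caveolin and was singled out after its values were seen, had 106, 288 and 269 CPM in Normoxia miR-125b. In Normoxia Plus A, a group outside this comparison, the values were 273, 102 and 103 CPM, so that replicate 1 of each group resembled the other group. The mean log2(CPM + 1) of the mitosis genes described later showed the same, at 5.77, 6.08 and 6.06 in Normoxia miR-125b and 6.03, 5.70 and 5.72 in Normoxia Plus A, as did that of the DNA replication genes, at 5.01, 5.34 and 5.32 against 5.33, 5.01 and 5.00. The counts of called genes are therefore also given without Normoxia miR-125b replicate 1.

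In the interaction, 15603 genes were tested and 1757 were called, at an adjusted p-value below 0.05 from edgeR's quasi-likelihood test and a change of at least 1.5-fold. This was 11.3% of the genes tested. For 669 genes (4.29%) the interaction was positive and for 1088 (6.97%) it was negative, and the median over all genes was -0.02. Without Normoxia miR-125b replicate 1, the numbers were 613 and 962. The balance of directions moved with gene length. Among 5201 genes with the shortest transcripts (42 to 1593 bases), 293 were called higher and 211 lower, whereas among the 5201 longest (2947 to 33593 bases) 148 were higher and 516 lower. With a trend on gene length removed from every library, 987 genes were higher and 860 lower, so the share of positive calls was 53.4% in place of 38.1%, and 1493 of the 1757 genes were called again in the same direction. With DESeq2, 1647 of them were called again in the same direction. With the Hypoxia Trim AG libraries thinned to the depth of the others it was 1676, and 1262 had an adjusted p-value below 0.05 and the same sign in each of the 12 fits that left out 1 library.

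The calls fell into classes by the oxygen condition in which Trim AG and miR-125b differed. Of the 1088 genes with a negative interaction, 513 (47.2%) differed by at least 1.5-fold between the mimics in hypoxia and by less in normoxia, and 190 (17.5%) the other way round. Another 98 (9.01%) changed in opposite directions, and 223 (20.5%) were under 1.5-fold in both conditions. Of the 669 genes with a positive interaction, 227 (33.9%) differed in hypoxia alone by this measure, 145 (21.7%) in normoxia alone and 21 in opposite directions. A further 224 (33.5%) were under 1.5-fold in both conditions. The negative calls thus came most often from a difference present in hypoxia.

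**Figure D1:**
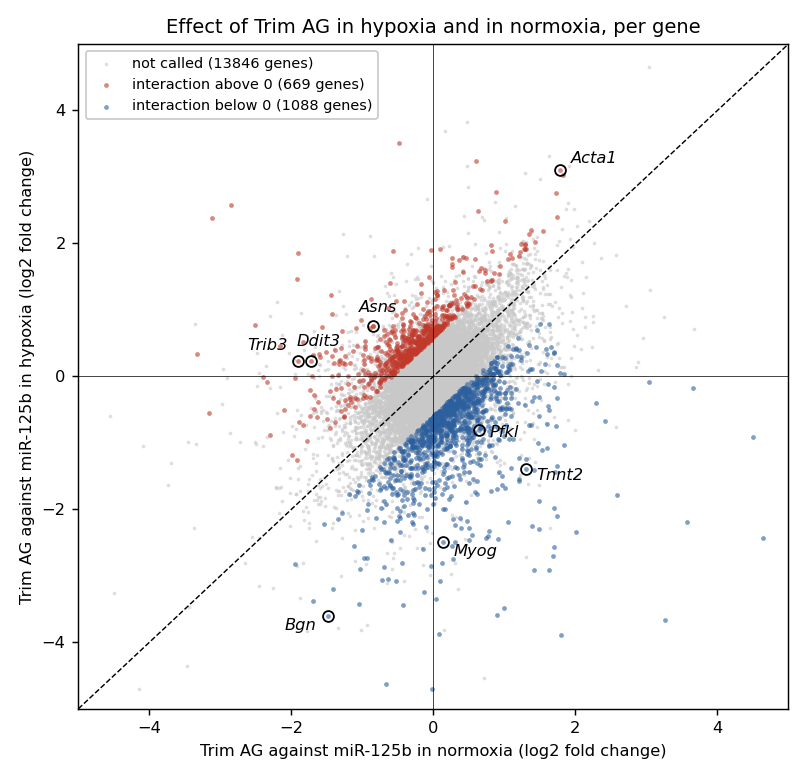
Each point is 1 of 15603 genes, with the log2 fold change of Trim AG against miR-125b in normoxia on the horizontal axis and in hypoxia on the vertical axis (4 genes lie outside the range shown). Genes with a positive interaction (669) lie above the diagonal and genes with a negative one (1088) below it, and the called genes are spread along both axes.

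Genes of the unfolded protein response and the integrated stress response were called in 1 direction only. Of 44 genes tested, 23 had a positive interaction and none a negative one, where 4.29% of all genes were called higher. The median interaction was 0.62, against -0.02 over all genes. In normoxia the median log2 fold change of Trim AG against miR-125b was -0.54, and in hypoxia it was 0.14. The mean log2(CPM + 1) of the list was 6.57 to 6.60 in Normoxia Trim AG against 7.08 to 7.22 in Normoxia miR-125b, and 7.34 to 7.47 in Hypoxia Trim AG against 7.26 to 7.27 in Hypoxia miR-125b, without overlap in either condition. The count was 21 to 23 in the 12 fits without 1 library, 23 without Normoxia miR-125b replicate 1, and 28 with the length trend removed.

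*Trib3*, a pseudokinase that ATF4 and CHOP induce under stress, carried the smallest p-value of the list. It had 567, 535 and 541 CPM in Hypoxia Trim AG and 471, 471 and 461 in Hypoxia miR-125b. In normoxia it had 47.5, 39.1 and 44.4 CPM with Trim AG and 159, 163 and 171 with miR-125b. The normoxia groups lay 3.76-fold apart with Trim AG the lower, and the hypoxia groups 1.17-fold apart with Trim AG the higher, without overlap in either. Its interaction was 2.14 on the log2 scale (SE 0.10, adjusted p = 1.27e-07). The rise from normoxia to hypoxia was 12.5-fold with Trim AG and 2.85-fold with miR-125b.

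*Ddit3* encodes CHOP, a transcription factor of prolonged stress. In hypoxia it had 208, 287 and 250 CPM with Trim AG and 225, 206 and 201 with miR-125b, and in normoxia 21.9, 25.9 and 25.0 against 81.4, 80.4 and 78.8. The hypoxia groups overlapped and the normoxia groups did not, and the interaction was 1.96 (SE 0.14, adjusted p = 8.71e-06). *Asns*, asparagine synthetase, had 383, 487 and 431 CPM with Trim AG and 257, 259 and 255 with miR-125b in hypoxia. In normoxia the order was reversed, at 120, 116 and 135 CPM with Trim AG and 232, 225 and 209 with miR-125b. Neither pair of groups overlapped, so *Asns* was 1.69-fold higher in hypoxia and 1.80-fold lower in normoxia, with an interaction of 1.60 (SE 0.12, adjusted p = 1.16e-05).

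Other called members cover the same branches. Amino acid and one-carbon enzymes included *Cth* (cystathionine gamma-lyase, 1.89), *Psph* (phosphoserine phosphatase, 1.5), *Mthfd2* (0.98), *Shmt2* (0.82), *Psat1* (0.79) and *Phgdh* (0.78), the last 3 of serine and glycine synthesis. The transporters *Slc3a2* (0.80), *Slc1a5* (0.65) and *Slc7a11* (0.64) were called as well. Transcription factors were *Atf3* (1.11), *Atf5* (1.10), *Cebpb* (0.91), *Atf4* itself (0.86) and *Xbp1* (0.60), the factor spliced by IRE1. *Dnajb9* (1.05) and *Dnajc3* (0.67), co-chaperones of the endoplasmic reticulum, and *Ppp1r15a* (0.78), which restores translation, had positive interactions too. *Nupr1* was called with 5.51, but its standard error was 1.68.

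Promoter sequence was examined for the whole list, whether a gene was called or not. The composite C/EBP-ATF element TGATGNAA, searched on both strands, occurred in 6 of 38 promoters of the list (15.8%) and in 3.98% of all 33469 RefSeq promoters of 300 bases. The 6 genes were *Chac1*, *Herpud1*, *Nupr1*, *Slc1a4*, *Slc7a1* and *Trib3*. Of these, *Trib3* and *Nupr1* are among the called genes named above, and a link between the element and the calls was not tested. Both windows printed here hold the element on the reverse strand, in capitals (GRCr8), for *Trib3* at chr3:161275527-161275574 on the minus strand and for *Chac1* at chr3:126795944-126795991 on the plus strand.
Trib3: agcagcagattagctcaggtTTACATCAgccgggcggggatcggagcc
Chac1: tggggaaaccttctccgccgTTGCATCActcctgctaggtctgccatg
The match begins 21 bases before the annotated start of *Trib3* and 167 before that of *Chac1*, and it is a description of the letters in the window.

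**Figure D2:**
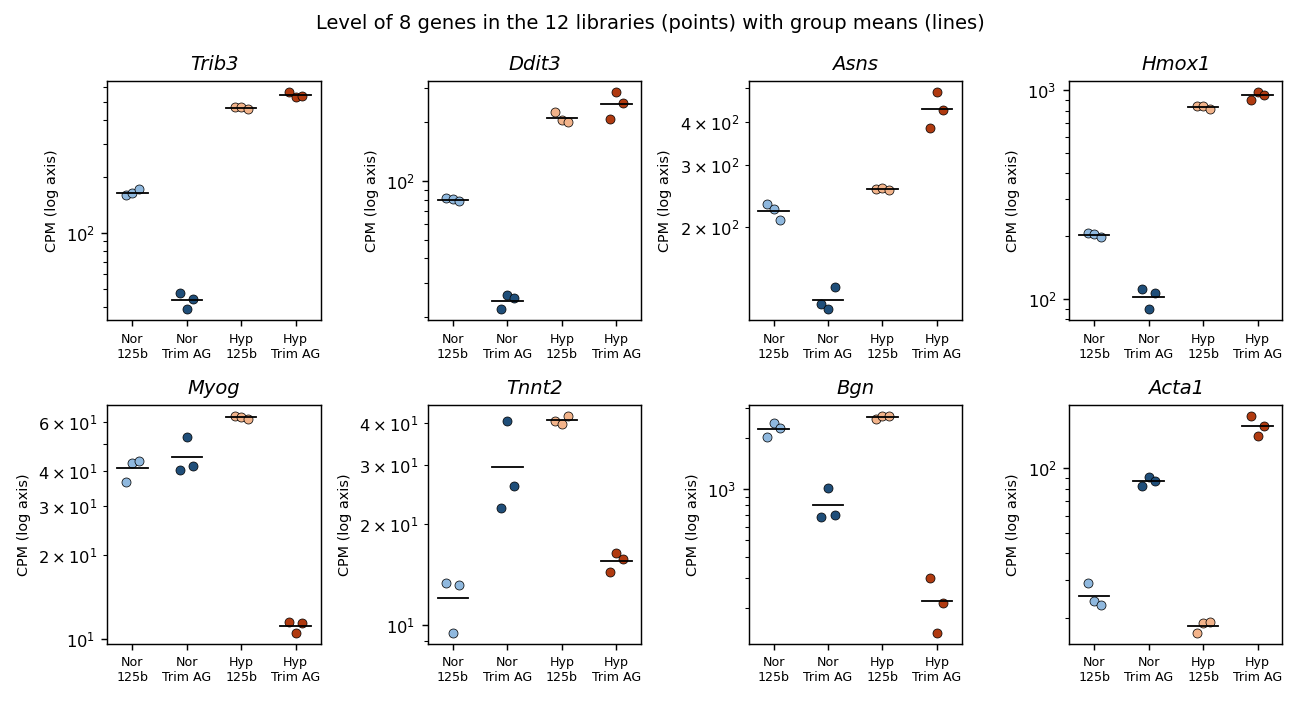
CPM of 8 genes on a log axis in the 12 libraries, with points for libraries and lines for group means. In normoxia *Trib3*, *Ddit3* and *Asns* lay below miR-125b in the Trim AG libraries, and in hypoxia *Myog*, *Tnnt2* and *Bgn* were lower with Trim AG.

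NRF2 is the transcription factor of the response to oxidants. Of 20 of its target genes tested, 8 had a positive interaction and 1, *Gsta4* (-0.85), a negative one, against 4.29% and 6.97% of all genes. The median interaction of the list was 0.50. The median log2 fold change of Trim AG against miR-125b was 0.26 in hypoxia and -0.17 in normoxia. *Hmox1*, heme oxygenase, which HIF also controls and which stands on the list of HIF targets, had 902, 983 and 954 CPM in Hypoxia Trim AG and 844, 837 and 811 in Hypoxia miR-125b. In normoxia it had 112, 89.4 and 107 CPM against 207, 205 and 198. It was 1.98-fold lower with Trim AG in normoxia and 1.14-fold higher in hypoxia, without overlap, and its interaction was 1.17 (SE 0.11, adjusted p = 3.45e-05). *Nfe2l2*, the gene of NRF2, had an interaction of 0.90, *Sqstm1*, an autophagy receptor, of 0.88, and *Txnrd1*, thioredoxin reductase, of 0.79. *Txnrd1* differed in hypoxia, at 805, 680 and 727 CPM against 426, 444 and 434, and overlapped in normoxia. The number of positive calls was 5 to 10 in the fits without 1 library, 5 without Normoxia Trim AG replicate 2 and 9 without Normoxia miR-125b replicate 1.

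Among 25 p53 targets, 5 were positive and 1 negative, against 4.29% and 6.97% of all genes, with a median of 0.28. *Gadd45a*, a stress sensor of growth arrest that ATF4 also induces, led them with 1.36 (SE 0.09), from 240, 257 and 248 CPM against 251, 245 and 240 in hypoxia and 34.7, 38.5 and 36.5 against 88.1, 92.2 and 97.3 in normoxia. The hypoxia groups overlapped, so this interaction rested on the normoxia groups, which differed 2.53-fold. *Sesn2* (0.98), *Ccng1* (0.76), *Tp53inp1* (0.65) and *Pmaip1* (0.61), the gene of NOXA, were also positive, and *Ddb2* (-0.82) of DNA repair was negative. Of 33 core apoptosis genes, 3 were positive and 2 negative, with a median of -0.12. The negative share was near the 6.97% of all genes. *Casp12*, a caspase tied to the endoplasmic reticulum, had 1.25, and *Birc3*, an inhibitor of apoptosis, had 1.05. Without Normoxia miR-125b replicate 1, 4 p53 targets were positive and 1 negative, and the apoptosis counts were again 3 and 2.

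HIF targets are given as the glycolytic genes and the others. Of 28 genes of glycolysis and glucose uptake, 6 had a negative interaction, where 6.97% of all genes were called lower, and none a positive one. The median was -0.17, and 5 genes were negative without Normoxia miR-125b replicate 1. *Pfkl*, a phosphofructokinase, had 155, 99.7 and 132 CPM in Hypoxia Trim AG and 219, 222 and 231 in Hypoxia miR-125b, and 112, 107 and 113 against 74.8, 67.9 and 70.8 in normoxia. It was 1.74-fold lower with Trim AG in hypoxia and 1.56-fold higher in normoxia, without overlap, so that it rose 3.15-fold in hypoxia with miR-125b and 1.16-fold with Trim AG. The interaction was -1.44 (SE 0.16, adjusted p = 1.27e-04). *Pfkm*, the muscle isoform, had -1.47, *Gpi*, which makes fructose 6-phosphate, -0.85, *Pdk1*, which limits entry of pyruvate into mitochondria, -0.68, and the glucose transporter *Slc2a1* -0.63. The sixth, *Pfkfb4*, is carried by more than 1 identifier and had counts near 0 in some groups, so its value is uncertain.

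Of 31 other HIF targets, 4 were positive and 7 negative, against 4.29% and 6.97% of all genes, with a median of -0.10. *Lox*, which cross-links collagen, had 145, 118 and 130 CPM in Hypoxia Trim AG, 628, 635 and 673 in Hypoxia miR-125b, 382 to 405 in Normoxia Trim AG and 754, 827 and 794 in Normoxia miR-125b. It was lower with Trim AG in both conditions, 4.94-fold in hypoxia and 2.01-fold in normoxia, and its interaction was -1.29 (SE 0.11, adjusted p = 1.58e-05). The collagen hydroxylases *Plod1* (-1.11) and *P4ha2* (-0.77), the carbonic anhydrase *Car9* (-1.01) and *Ndrg1* (-2.43) were negative too. *Stc2* (0.80) and *Hilpda*, a lipid droplet protein (0.72), were positive beside *Hmox1*. Without Normoxia miR-125b replicate 1 the counts were again 4 and 7. Calls among these targets thus went in both directions.

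Genes of striated muscle had mostly negative interactions. Of 39 sarcomere genes tested, 13 were negative, where 6.97% of all genes were called lower, and 2 were positive, with a median of -0.61. The median log2 fold change of Trim AG against miR-125b was 0.37 in normoxia and -0.26 in hypoxia. Of 16 genes of muscle calcium handling, 5 were negative and none positive (median -0.46), and of 19 myogenic regulators and fusion genes 4 were negative and 1 positive (median -0.28). Without Normoxia miR-125b replicate 1, the sarcomere counts were 12 negative and 1 positive, 3 calcium genes were negative, and the counts of myogenic regulators were again 4 and 1. The summed level of the 7 muscle markers was 66.5 to 83.9 CPM in Hypoxia Trim AG, 160 to 163 in Hypoxia miR-125b, 229 to 239 in Normoxia Trim AG and 197 to 213 in Normoxia miR-125b. In bulk samples such as these, fewer cells of a type and less RNA per cell cannot be told apart.

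*Myog* encodes myogenin, the transcription factor that starts terminal differentiation of myoblasts. It had 11.4, 10.5 and 11.4 CPM in Hypoxia Trim AG and 63.1, 62.1 and 61.5 in Hypoxia miR-125b. In normoxia it had 40.1, 53.1 and 41.7 CPM against 36.6, 42.7 and 43.5. The mimics differed 5.59-fold in hypoxia and overlapped in normoxia, and the interaction was -2.62 (SE 0.14, adjusted p = 4.67e-07). From normoxia to hypoxia *Myog* rose 1.52-fold with miR-125b and fell 4.04-fold with Trim AG. *Chrnd* (-1.89) and *Chrna1* (-1.56), subunits of the acetylcholine receptor, and *Mef2c* (-0.71), a partner of myogenin, were also negative, and *Musk*, the receptor kinase of the synapse, was positive (0.75).

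*Tnnt2*, cardiac troponin T, had 14.4, 16.5 and 15.8 CPM in Hypoxia Trim AG and 40.7, 39.9 and 42.2 in Hypoxia miR-125b, and in normoxia 22.4, 40.7 and 26.0 against 13.4, 9.50 and 13.2. Trim AG was the lower by 2.63-fold in hypoxia and the higher by 2.46-fold in normoxia, without overlap. Its interaction was -2.70 (SE 0.26, adjusted p = 3.61e-05). *Actc1* (-3.68), *Tnni2* (-2.50), *Myom2* (-1.66), *Myh3* (-1.58), the embryonic myosin, and *Tnnt3* (-1.08) had the same sign. Among the calcium genes, *Atp2a1*, the calcium pump of the sarcoplasmic reticulum, had -1.87, *Stac3* -1.67, *Ryr1*, the release channel, -1.13 and *Casq1* -0.97, at levels of a few CPM. *Acta1*, skeletal actin, went the other way, with 176, 141 and 158 CPM against 17.0, 18.8 and 19.2 in hypoxia and 82.3, 91.2 and 86.9 against 29, 24 and 22.8 in normoxia. It was higher with Trim AG in both conditions, 8.62-fold and 3.43-fold, and its interaction was 1.33 (SE 0.14, adjusted p = 7.76e-05).

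The E-box CAGCTG, which myogenic factors bind and which reads the same on both strands, occurred in 20 of 50 promoters of sarcomere genes (40.0%), 9 of 23 of myogenic regulators (39.1%) and 5 of 18 of calcium genes (27.8%), and in 15.1% of all promoters. The windows shown are those of the sarcomere genes with opposite signs, *Tnnt2* at chr13:49818892-49818937 (plus strand) and *Acta1* at chr19:68784406-68784444 (minus strand), in GRCr8 with the E-box in capitals.
Tnnt2: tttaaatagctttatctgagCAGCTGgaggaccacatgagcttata
Acta1: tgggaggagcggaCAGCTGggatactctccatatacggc
The box begins 211 bases before the start of *Tnnt2* and 237 before that of *Acta1*, so both genes hold it although their interactions had opposite signs.

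The extracellular matrix held more negative calls than any other of the 25 lists. Of 43 genes tested, 21 were negative and 1, the protease inhibitor *Timp3* (0.63), was positive, against 6.97% and 4.29% of all genes. The median interaction of the list was -0.75. The median log2 fold change of Trim AG against miR-125b was -0.79 in hypoxia and -0.27 in normoxia. The mean log2(CPM + 1) of the list was 6.85, 6.24 and 6.56 in Hypoxia Trim AG and 7.48, 7.53 and 7.52 in Hypoxia miR-125b, without overlap. Within Hypoxia Trim AG this order was the reverse of the share of counts on mitochondrial genes (3.52%, 5.29% and 4.57%). Hypoxia Trim A had matrix levels of 7.38, 6.84 and 6.92 where the mitochondrial list had 9.54, 10.06 and 9.90. In Hypoxia Trim AGU the values were 7.14, 6.38 and 6.79 against 9.56, 10.26 and 9.94. The part of this spread between libraries in the matrix result was not tested. In normoxia it was 7.05, 7.27 and 7.05 against 7.23, 7.29 and 7.39, and the groups overlapped. The number of negative calls was 19 to 29 in the fits without 1 library, 21 without Normoxia miR-125b replicate 1 and 20 with the length trend removed.

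*Bgn*, the proteoglycan biglycan, had 301, 143 and 214 CPM in Hypoxia Trim AG and 2592, 2678 and 2698 in Hypoxia miR-125b. In normoxia it had 683, 1018 and 699 CPM against 2031, 2428 and 2271. It was 12.1-fold lower with Trim AG in hypoxia and 2.80-fold lower in normoxia, without overlap, and the Hypoxia Trim AG libraries spread about their mean by more than the others. The interaction was -2.11 (SE 0.29, adjusted p = 4.81e-04). *Postn*, periostin, had 503, 499 and 508 CPM against 704, 721 and 698 in hypoxia, and 662, 919 and 678 against 534, 486 and 451 in normoxia. Here Trim AG was lower in hypoxia and higher in normoxia, and the interaction was -1.11 (SE 0.15). *Col6a3*, a chain of collagen VI, had -2.35 from 38.8, 13.1 and 21.6 CPM against 87.4, 90.1 and 94.6 in hypoxia, with Trim AG the higher in normoxia (98.6, 135 and 101 against 76.7, 81.7 and 84.2).

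Small leucine-rich proteoglycans, which bind collagen fibrils, were all on the negative side where called: *Fmod* (-2.37), *Lum* (-1.92), *Prelp* (-1.62) and *Dcn* (-1.16), with *Ogn* at -3.97 but a spread of 11.5-fold between libraries of 1 group. Fibrillar collagens *Col3a1* (-1.19) and *Col1a1* (-0.95), elastin (*Eln*, -1.67), tenascin C (*Tnc*, -1.22), thrombospondin 2 (*Thbs2*, -2.18), the proteases *Mmp2* (-1.08) and *Mmp14* (-0.79) and the cross-linking enzymes *Loxl2* (-0.80), *Loxl1* (-0.77) and *Loxl3* (-0.61) were negative. *Olfml2b* (-3.17), *Olfml2a* (-3.11) and *Mamdc2* (-3.16), extracellular proteins outside the list, were among the 10 most negative genes. Fibroblast markers moved with these genes. Their summed level over 6 genes was 17152, 7996 and 11480 CPM in Hypoxia Trim AG, 37821 to 40137 in Hypoxia miR-125b, 21731 to 24601 in Normoxia Trim AG and 34145 to 39327 in Normoxia miR-125b. Of the 6, *Col1a1*, *Col3a1*, *Dcn* and *Lum* are matrix genes with a negative call, *Thy1* had an interaction of -0.14 (adjusted p = 0.326), and *Pdgfra* stayed below 0.74 CPM in every library. The part of fibroblast-like expression in the matrix result was not tested.

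Smooth muscle genes and the cytoskeletal targets of SRF moved mostly the other way. Of 27 genes tested, 7 were positive and 2 negative, against 4.29% and 6.97% of all genes, with a median of 0.17. Without Normoxia miR-125b replicate 1 the counts were 6 and 2. *Actg2*, an actin of smooth muscle, had 4010, 4045 and 4161 CPM in Hypoxia Trim AG, 1580, 1592 and 1569 in Hypoxia miR-125b, 2897, 3117 and 3019 in Normoxia Trim AG and 2019, 1987 and 2014 in Normoxia miR-125b. It was higher with Trim AG in both conditions and more so in hypoxia (2.58-fold in hypoxia), and its interaction was 0.78 (SE 0.07, adjusted p = 3.45e-05). *Tagln*, transgelin, had 0.86, *Lmod1* 0.81, *Fhl2* 0.80, *Cnn1*, calponin, 0.71 and *Csrp1* 0.68, whereas the myosins *Myh11* (-0.88) and *Myh10* (-0.79) were negative. Summed over 4 smooth muscle markers, the level was 15843 to 16669 CPM in Hypoxia Trim AG, 9444 to 9758 in Hypoxia miR-125b, 14784 to 15382 in Normoxia Trim AG and 11675 to 12011 in Normoxia miR-125b. *Tagln*, *Cnn1* and *Myh11* of these markers also stand on the list, so the sum is not separate from the result. *Acta2* made up most of the sum (6883 to 7210 CPM in Hypoxia miR-125b), with an interaction of 0.22. The part of smooth muscle-like expression in the result was not tested. Among 4 neuronal markers, *Tubb3*, a tubulin, made up nearly the whole sum, with 51.9 to 56.1 CPM in Hypoxia Trim AG, 23.4 to 26.9 in Hypoxia miR-125b, 11.7 to 14.3 in Normoxia Trim AG and 14.7 to 21.3 in Normoxia miR-125b (interaction 1.54, adjusted p = 1.29e-04), and *Rbfox3*, *Syp* and *Gfap* stayed at or below 1.08 CPM.

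Of 34 genes of TGF-beta and BMP signalling, 5 were positive and 2 negative, against 4.29% and 6.97% of all genes. The median was 0.04, with a sign that changed in some fits, and the counts were 4 and 2 without Normoxia miR-125b replicate 1. *Tgfb3*, a ligand, had 344, 323 and 339 CPM with Trim AG against 113, 115 and 111 in hypoxia, and 472, 613 and 519 against 476, 350 and 380 in normoxia. The groups were 2.97-fold apart in hypoxia and overlapped in normoxia, with an interaction of 1.16 (SE 0.15). *Cyr61*, a matricellular target of YAP, had 1.17 (SE 0.11), with 397, 334 and 357 CPM against 155, 156 and 153 in hypoxia and overlapping groups in normoxia. *Id1* (0.61), *Id2* (0.69) and the BMP antagonist *Nog* (0.67) were positive, and *Tgfbi* (-0.94) and *Fst* (-0.69) negative.

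Genes of mitosis had positive interactions of small size. Of 39 tested, 38 had a value above 0, with a median of 0.41. Among them 7 were called higher, against 4.29% of all genes, and none lower. The mitosis genes were higher with Trim AG in both conditions, by a median of 1.55 on the log2 scale in hypoxia and 1.17 in normoxia. *Hmmr*, a spindle protein, had 29.1, 43.1 and 34.4 CPM in Hypoxia Trim AG and 7.60, 9.37 and 9.77 in Hypoxia miR-125b, and 89.4, 89.0 and 90.7 against 35.6, 42.0 and 37.1 in normoxia. It was 3.98-fold higher with Trim AG in hypoxia and 2.35-fold higher in normoxia, and its interaction was 0.76 (SE 0.18, adjusted p = 9.46e-03). *Cep55*, which acts in the last step of cell division, had 0.64, as had *Cenpf* and *Ube2c*. The number of calls rested on single libraries. It was 1 without Hypoxia Trim AG replicate 2 or without Normoxia miR-125b replicate 2, 4 without Normoxia Trim AG replicate 2 or Normoxia miR-125b replicate 3, and 13 without Normoxia miR-125b replicate 1, and it was 14 with the length trend removed.

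The core of the CHR element, TTTGAA, which marks many promoters of mitotic genes, occurred on either strand in 25 of 36 mitosis promoters (69.4%) and in 18.3% of all promoters. The window of *Hmmr*, the mitosis gene with the largest interaction among those called, lies at chr10:25665236-25665281 on the minus strand (GRCr8), and the core (in capitals) begins 46 bases before the start.
Hmmr: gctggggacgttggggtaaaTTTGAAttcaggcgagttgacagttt

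Of 42 DNA replication genes, 4 were negative, a share near the 6.97% of all genes called lower, and none was positive. The median was -0.18, and without Normoxia miR-125b replicate 1 it was -0.05 with 3 negative calls. The difference from the mitosis genes was not tested. *Ccne1*, cyclin E1, had 18.8, 17.4 and 18.1 CPM in Hypoxia Trim AG, 25.8, 26.9 and 27.7 in Hypoxia miR-125b, 71.9, 71.1 and 71.0 in Normoxia Trim AG and 60.4, 58.2 and 57.7 in Normoxia miR-125b. Trim AG was lower in hypoxia and higher in normoxia, without overlap, and the interaction was -0.85 (SE 0.08, adjusted p = 3.84e-05). *E2f2* (-1.24), *Tk1*, thymidine kinase (-0.73), and *Pold1*, a DNA polymerase (-0.62), were the others. The oxygen effect on this list was negative for both mimics, with a median of -1.40 for Trim AG and -1.13 for miR-125b.

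**Figure D3:**
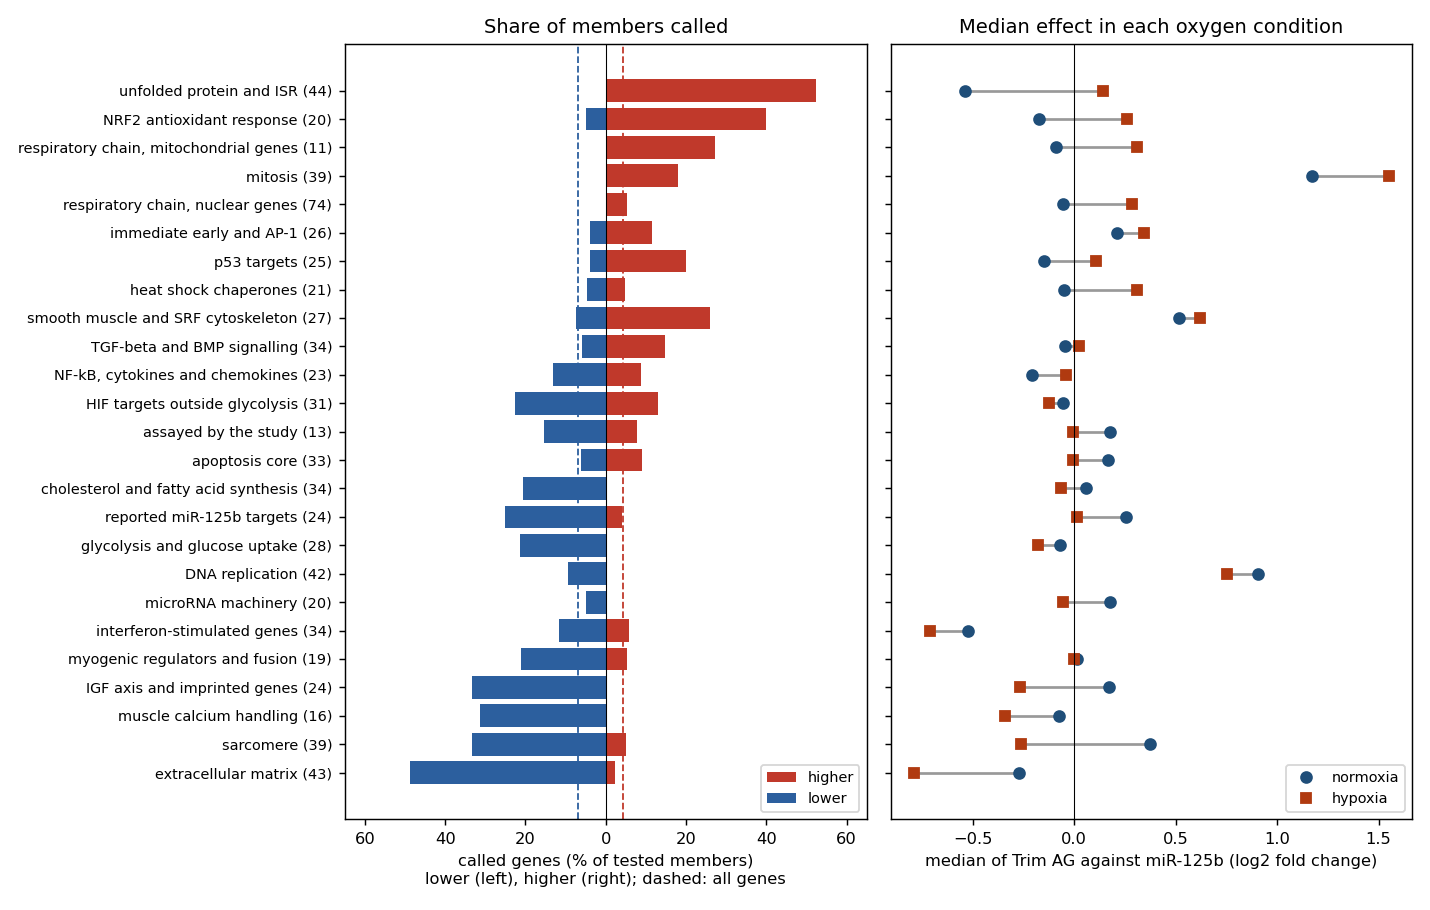
For each gene list, with the number of genes tested in brackets, the left panel shows the share of members with a positive or negative call (dashed lines give 4.29% and 6.97% of all genes) and the right panel the median log2 fold change of Trim AG against miR-125b in each oxygen condition. The stress response (23 of 44 positive) and the extracellular matrix (21 of 43 negative) stand at the ends.

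Respiratory chain genes had mostly values above 0 and few calls. Of 74 nuclear genes, 64 had a value above 0, with a median of 0.36, and 4 were called, a share near the 4.29% of all genes called higher. Of 11 mitochondrial genes 3 were called, with a median of 0.42, and 1 with the length trend removed. *Ndufb9*, a subunit of complex I, had 170, 252 and 215 CPM against 149, 145 and 139 in hypoxia and 132, 120 and 124 against 129, 140 and 118 in normoxia (interaction 0.59, SE 0.16). *Mt-nd4l*, another subunit of complex I that the mitochondrial genome encodes, had 1.01 (SE 0.23), from 272, 490 and 376 CPM against 217, 227 and 206 in hypoxia. In both genes Hypoxia Trim AG replicate 2 was the highest library, the same library in which mitochondrial genes took the largest share of the counts (5.29%). The nuclear calls numbered 1 to 13 in the fits without 1 library and 2 without Normoxia miR-125b replicate 1, a fit in which 1 mitochondrial gene was called. *Cox6a2*, the muscle isoform of a complex IV subunit, was not on the list but among the 10 most positive genes, with 30.8, 45.4 and 36.1 CPM against 19.3, 20.4 and 18.8 in hypoxia and 3.43, 3.88 and 3.70 against 11.6, 9.18 and 8.71 in normoxia. Its groups did not overlap in either condition, and the interaction was 2.36 (SE 0.20, adjusted p = 2.29e-05).

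Of 24 genes of the IGF axis and imprinted genes, 8 were negative, against 6.97% of all genes, and none positive. The median was -0.36. *Igfbp5*, an IGF-binding protein of differentiating muscle, had 34.8, 17.0 and 25.2 CPM in Hypoxia Trim AG and 114, 121 and 124 in Hypoxia miR-125b, and 71.3, 88.2 and 68.5 against 95.6, 93.2 and 90.2 in normoxia. The difference was 4.66-fold in hypoxia and 1.22-fold in normoxia, and the interaction was -1.93 (SE 0.25, adjusted p = 3.14e-04). *Peg3* (-1.26), *Igfbp4* (-1.08), *Plagl1* (-0.99), *Mest* (-0.66) and *Igf2* itself (-0.63) had the same sign, with 5 negative calls without Normoxia miR-125b replicate 2 and 8 without replicate 1. Of 34 genes of cholesterol and fatty acid synthesis, 7 were negative, against the same 6.97%, and none positive, with a median of -0.13. *Dhcr7*, of the last steps of cholesterol synthesis, had 1.91, 1.56 and 1.36 CPM against 4.39, 3.86 and 5.07 in hypoxia and 15.7, 20.2 and 19.2 against 15, 18.5 and 16.9 in normoxia. The groups overlapped in normoxia alone, and its interaction was -1.59 (SE 0.22). *Scd2* (-1.27), a fatty acid desaturase, and *Srebf2* (-0.62), the regulator of the pathway, were negative too. The number of negative calls was 4 without Hypoxia Trim AG replicate 2 and 7 without Normoxia miR-125b replicate 1, and with the length trend removed 3 genes were positive and 4 negative.

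Calls among immune and early response genes were few and went both ways, against 4.29% of all genes called higher and 6.97% lower. Of 34 interferon-stimulated genes, 2 were positive and 4 negative (median -0.27), among them *Ifit2* (1.23), *Mx2* (-3.17, at 3.01 CPM or less) and *Isg15* (-0.78), and 2 were negative without Normoxia miR-125b replicate 1. Of 23 genes of NF-kB, cytokines and chemokines, 2 were positive and 3 negative, with a median of -0.03 that changed sign with the scaling, and the counts were the same without that library. *Il33*, an alarmin, had 0.589, 0.554 and 0.944 CPM in Hypoxia Trim AG, 3.78, 3.76 and 4.79 in Hypoxia miR-125b, 4.13, 6.28 and 4.52 in Normoxia Trim AG and 2.92, 5.16 and 4.39 in Normoxia miR-125b. It was 5.87-fold lower with Trim AG in hypoxia and overlapped in normoxia (interaction -2.81, SE 0.36). *Cxcl12*, a chemokine, had -0.98 and *Il6* 1.2. Of 26 immediate early genes, 3 were positive and 1 negative, namely *Dusp1* (0.93), *Myc* (0.70), *Ier3* (0.66) and *Fosb* (-1.69), and 6 were positive without Normoxia miR-125b replicate 1. Among 21 heat shock chaperones, *Hspa9*, the mitochondrial HSP70, was positive (1.15) and *Hspa8*, the cytosolic form, negative (-0.81), with 1 call in each direction again without that library.

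Genes described elsewhere as targets of miR-125b had 1 positive and 6 negative calls among 24 tested, against 4.29% and 6.97% of all genes. The median was -0.16. *Bmf*, which encodes a pro-apoptotic BH3-only protein, had 5.42, 3.96 and 4.86 CPM in Hypoxia Trim AG and 12.3, 10.4 and 13.8 in Hypoxia miR-125b, and 10.5, 11.3 and 11.2 against 8.47, 10.5 and 7.78 in normoxia. It was 2.56-fold lower with Trim AG in hypoxia, and its interaction was -1.66 (SE 0.21, adjusted p = 2.85e-04). The vitamin D receptor gene *Vdr* (-1.27), *Tnfaip3* (-0.95), *Mknk2* (-0.84), *Map2k7* (-0.74) and *Igf2* (-0.63) were the other negative ones. *Tp53inp1*, a p53-induced protein, was positive (0.65, SE 0.20, adjusted p = 3.31e-02), with 27.5, 33 and 37.1 CPM against 18.4, 21.2 and 20.9 in hypoxia and overlapping groups in normoxia, and it was not called without Normoxia miR-125b replicate 1. Of 20 genes of the microRNA machinery, *Ago1*, an Argonaute gene, was called (-0.64), but not without that library.

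Of 13 genes that were also assayed by RT-qPCR or Western blot in the study, *Bmf*, *Tnnt2* and *Tp53inp1* were called. *Casp2*, an initiator caspase, had an interaction of -0.56 (adjusted p = 3.89e-03), which was less than 1.5-fold. Its levels were 28.9, 28.5 and 28.4 CPM against 28.2, 27.0 and 30.8 in hypoxia and 39.2, 40.4 and 40.3 against 24.1, 27.5 and 29.8 in normoxia. *Bak1*, an effector of mitochondrial apoptosis, had 64.3, 56.9 and 62.1 CPM against 35.9, 35.9 and 36.4 in hypoxia and 52.7, 51.4 and 51.4 against 43.7, 33.5 and 33.7 in normoxia. It was higher with Trim AG in both conditions, and the interaction of 0.27 (SE 0.13, adjusted p = 0.141) did not pass. *Bcl2l11*, the gene of BIM, had -0.19 (SE 0.12), *Traf6* -0.12 (SE 0.19), *Hif1an* -0.03 (SE 0.14) and *Actb* 0.13 (SE 0.09), none of which passed. *Tnfrsf1b*, at 1.22 CPM or less, had -0.55 with an SE of 0.50. For the genes whose adjusted p-value did not pass, a difference between the oxygen conditions was not detectable with 3 libraries per group.

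Genes outside the lists were taken by size. The 10 most positive were *Abhd10* (5.42), *Cox6a2*, *Trib3*, *Casp4* (2.02), *Chrm2* (2.01), *Adm2* (1.97), *Ddit3*, *Grb7* (1.95), *Cth* and a locus with an assembly name. *Casp4*, an inflammatory caspase, had 119, 178 and 142 CPM against 121, 114 and 117 in hypoxia and 24.2, 24.6 and 25.9 against 84.3, 79.3 and 78.9 in normoxia, a difference of 3.25-fold in normoxia where the groups did not overlap. *Adm2*, a peptide hormone that stress induces, and *Chrm2*, the muscarinic receptor of heart, stayed below 7 CPM. The 10 most negative were *Mff* (-5.69), *Mrpl53* (-5.41), *Mogs* (-4.47), *Mif* (-4.37), *Epb4.1l1* (-4.27), *Ogn*, *Mx2*, *Olfml2b*, *Mamdc2* and *Olfml2a*. In these 10 the libraries of 1 group lay up to 2.02-fold (*Olfml2b*) to 20.7-fold (*Mrpl53*) apart, with 5.94-fold for *Mx2* and 3.74-fold for *Mamdc2*, and in *Abhd10* 2.93-fold, so their size is uncertain. In Normoxia Trim AG, *Mrpl53* had 1.19, 24.6 and 24.6 CPM, *Mogs* 0.875, 7.34 and 5.55, and *Mif* 3.99, 49.6 and 3.14. The normoxia groups of *Mogs*, *Mif* and *Epb4.1l1* overlapped. Such jumps between libraries also occurred outside the comparison, as for *Mif* with 3.75 to 107 CPM in Hypoxia Plus A. Their cause was not tested, and for these genes more than the size is uncertain. *Abhd10*, *Mff* and *Ogn* are also carried by 2 identifiers, between which reads may be shared.

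The interaction was also set against the hypoxia response of libraries that it does not use. Between Hypoxia Trim A and Normoxia Trim A, 1795 of 14973 genes (12%) were higher and 2174 (14.5%) lower in hypoxia. Of the 1788 induced genes that were tested in the interaction, 263 (14.7%) had a positive and 49 (2.74%) a negative call, with a median of 0.28. Of the 2174 repressed genes, 72 (3.31%) were positive and 434 (20%) negative, with a median of -0.27, and over the 10969 genes without a call the median was -0.01. Genes that hypoxia raised in Trim A cells thus had more positive calls, and genes that it lowered more negative calls, than the 4.29% and 6.97% over all genes. Trim A is itself a trimmed mimic. Genes picked by its oxygen response also carry any interaction with oxygen that it shares with Trim AG, and this part was not tested. When the response was taken from Plus A libraries, the medians were 0.04 and -0.10, with 139 positive and 132 negative calls among 1491 induced genes and 108 and 240 among 1923 repressed genes. Normoxia Plus A replicate 1 is the library whose *Cav1* resembled miR-125b. Without it, an alternative chosen after seeing the data, the medians were 0.04 and -0.08, with 8.98% positive and 9.41% negative calls among 1392 induced genes and 5.94% and 12.6% among 1936 repressed genes. With the Plus A response, induced genes thus had positive and negative calls in nearly equal number, with or without that library.

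**Figure D4:**
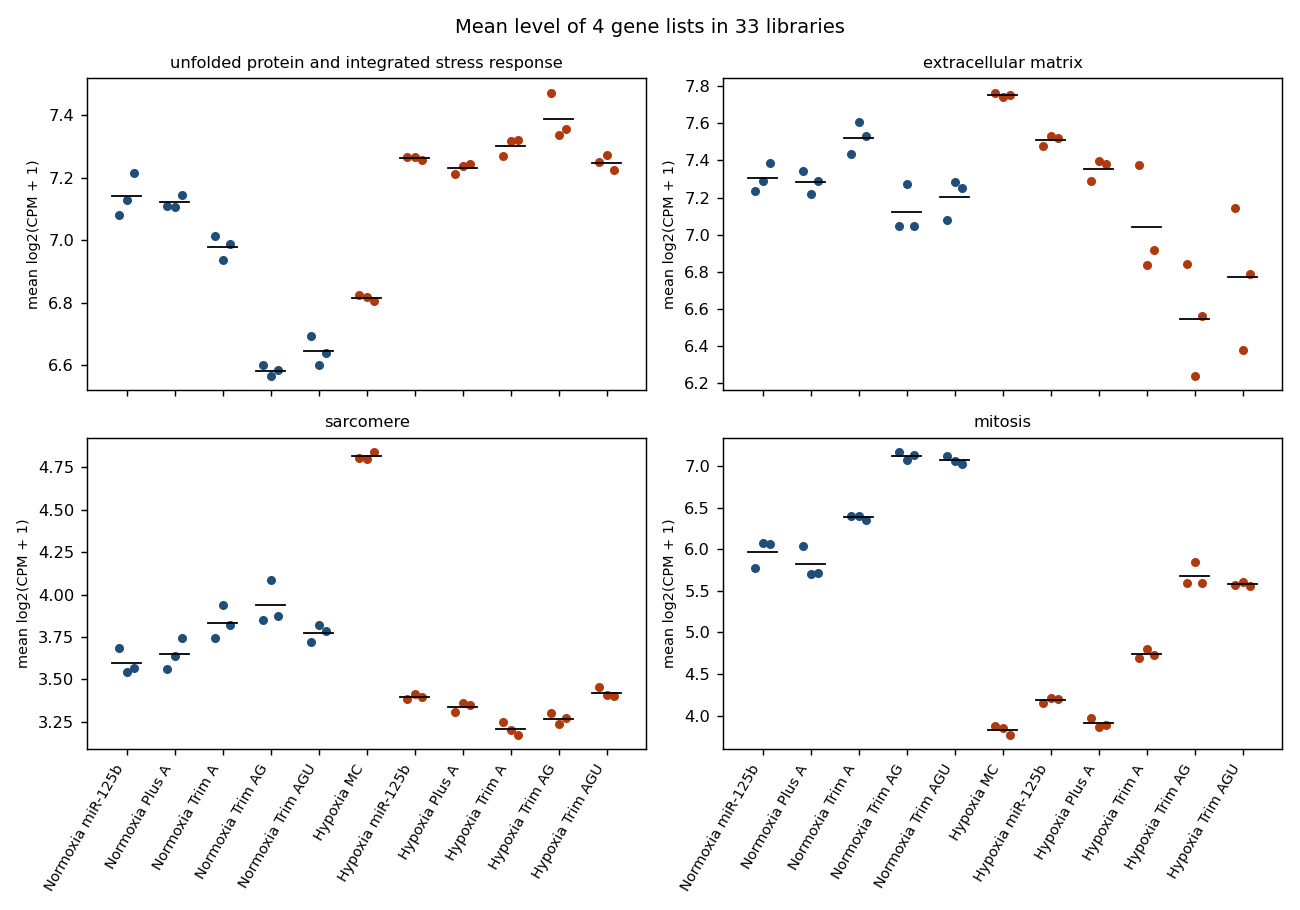
Mean log2(CPM + 1) over the genes of 4 lists in each of 33 libraries (points), with group means (lines), normoxia in blue and hypoxia in red. The stress response genes were lowest in Normoxia Trim AG (6.57 to 6.60) and Normoxia Trim AGU (6.60 to 6.69), and the extracellular matrix genes were low in Hypoxia Trim AG (6.24 to 6.85), overlapping Hypoxia Trim AGU (6.38 to 7.14) and Hypoxia Trim A (6.84 to 7.38).

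The same interaction was computed for the other trimmed mimics, which share the 6 miR-125b libraries with Trim AG, so that the values are placed side by side. For Trim AGU 150 of 15525 genes were called (0.966%), and for Trim A 94 of 15534 (0.605%), with 3428 and 3481 genes at an unadjusted p-value below 0.05. In the stress response list, 23 genes were positive for Trim AG, 13 for Trim AGU and 1 for Trim A. *Trib3* had 2.14 (SE 0.10) for Trim AG, 2.05 (SE 0.16) for Trim AGU and 0.53 (SE 0.10) for Trim A, and *Asns* had 1.60, 1.35 and 0.47. In the matrix list, 21 genes were negative for Trim AG, 2 for Trim AGU and 5 for Trim A, with medians of -0.75, -0.61 and -0.66. The order of the mimics changed with the list. In the same order, medians were 0.50, 0.94 and 0.32 for NRF2 targets and 0.36, 0.65 and 0.27 for nuclear respiratory chain genes. They were 0.28, 0.40 and 0.20 for p53 targets, -0.36, -0.51 and -0.27 for the IGF list and -0.61, -0.23 and -0.48 for sarcomere genes. Of the p53 targets, 5, 3 and 3 were positive. *Myog* had -2.62 (SE 0.14), -0.94 (SE 0.17) and -1.03 (SE 0.15). The number of calls moved with single libraries, from 11 to 2250 for Trim AGU (2250 without Hypoxia Trim AGU replicate 1) and from 0 to 1141 for Trim A (1141 without Hypoxia Trim A replicate 1).

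**Figure D5:**
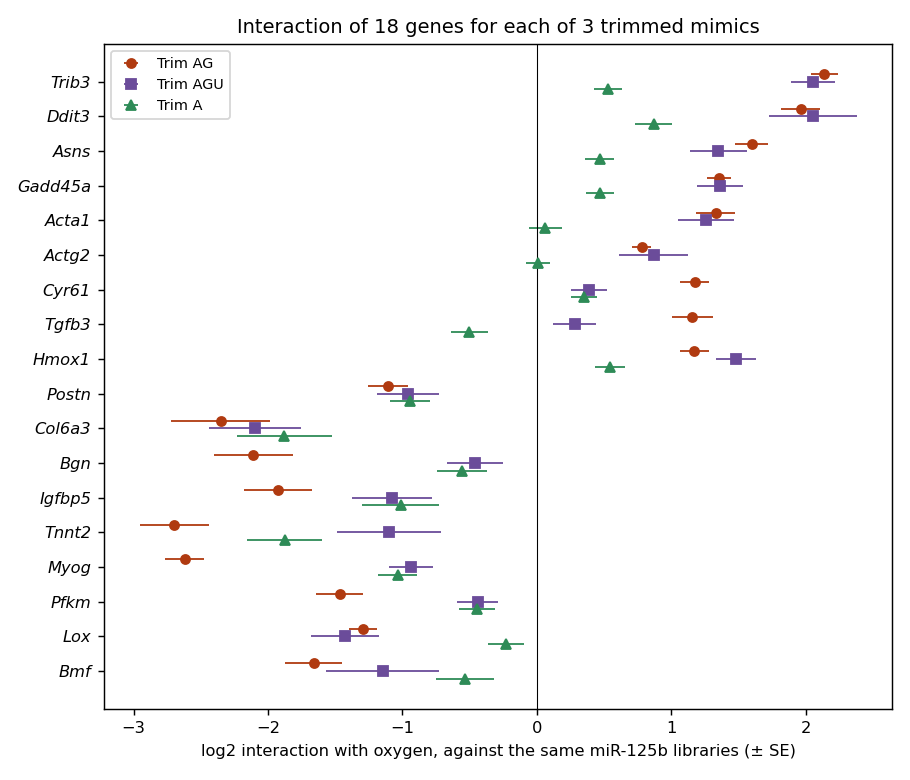
Log2 interaction with oxygen of 18 genes for Trim AG (circles), Trim AGU (squares) and Trim A (triangles), each against the same miR-125b libraries, with bars of 1 SE. For *Trib3* and *Ddit3* Trim AGU lies beside Trim AG, and for *Myog*, *Bgn* and *Pfkm* Trim AG lies below both others.

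The oxygen effects of the mimics were then compared directly, without the miR-125b libraries. Between Trim AG and Trim AGU, which differ by 1 base at the 3′ end, 3 of 15563 genes were called (0.0193%), all lower for Trim AG, and 1367 had an unadjusted p-value below 0.05. They were *Myog* (difference -1.65, SE 0.20, adjusted p = 0.0165), *Krt8* and the locus AABR07015057.1. *Krt8*, a keratin of simple epithelia, had 55.2, 48.7 and 56.4 CPM in Hypoxia Trim AG against 146 to 191 in Hypoxia Trim AGU, and 36.6 to 41.7 against 41.7 to 52.0 in normoxia, a difference of -1.45 (SE 0.19). The median SE over genes was 0.28 here and 0.17 in the interaction with miR-125b, and the Trim AGU libraries spread most, so that few calls do not show that both mimics acted alike. For *Trib3* the difference was 0.12 (SE 0.19), for *Ddit3* -0.06 (SE 0.35) and for *Bgn* -1.62 (SE 0.36, adjusted p = 0.310).

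Between Trim AG and Trim A, which also differ by 1 base, 175 of 15605 genes were called (1.12%), 107 higher and 68 lower for Trim AG, with a median SE of 0.19. In the stress response list 10 genes were higher and none lower, led by *Trib3* (1.61, SE 0.13, adjusted p = 9.1e-05), with *Asns* at 1.14 (SE 0.14) and *Ddit3* at 1.10 (SE 0.18). *Trib3* had a median of 513 CPM in Hypoxia Trim A and 123 in Normoxia Trim A, and its libraries lay between those of Trim AG and miR-125b in both conditions. Smooth muscle and SRF genes had 7 higher and none lower, with *Actg2* at 0.78 (SE 0.10) and *Acta1*, of the sarcomere list, at 1.28 (SE 0.12). *Tgfb3* had 1.67 (SE 0.14) and *Cyr61* 0.83 (SE 0.11). *Myog* had -1.58 (SE 0.18), *Bgn* -1.54 (SE 0.34, adjusted p = 0.045), *Lox* -1.05 (SE 0.16) and *Pfkm* -1.01 (SE 0.18). In the matrix list 1 gene was lower, and no mitosis gene was called in either direction. These values share the Trim AG libraries with the interaction and are not independent of it.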

How the data were processed

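RNA sequencing libraries of poly-A RNA, not stranded, were analysed. The authors deposited 12 tables that each compare 2 groups, and 11 of them list raw counts of genes by library. Beside these the authors gave FPKM values, group means as an expression signal, log2 fold changes and p-values of their own test, which were not used. Per the labels, HISAT2 and StringTie were among the tools. Their versions and the genome build are not given in the sources used here. Tables were joined on gene identifiers, and the tables held the same counts wherever a library occurred in more than one (0 conflicts). A gene left out of a table was given 0, and such genes had at most 1 count elsewhere. Of 36 samples, 33 libraries had counts and 12 entered the interaction. As the libraries were not stranded, overlapping and antisense genes cannot be told apart, and 312 symbols belong to several identifiers.

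The model was edgeR 4.0.16 on R 4.3.3 (TMM normalization, filterByExpr, quasi-likelihood test, a mean for each of the 4 groups, contrast of the oxygen by mimic interaction). Genes were called at a Benjamini-Hochberg adjusted p below 0.05 over all genes tested and a fold of at least 1.5. All adjusted p-values are from this test, and each SE is the log2 value over the square root of F. P-values measure only the spread between these libraries, which may be technical. The Trim AGU, Trim A and direct comparisons used the 12 libraries of their own groups. CPM of the 12 libraries are scaled to the effective library size, and totals per library of 28690101 to 42672584 counts set the counting error, which is part of the spread given. Marker sums, *Cav1*, levels of lists and levels of other groups were scaled over 33 libraries together.

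Named genes are the 10 called per direction with the largest interaction, a mean of at least 1 CPM, a gene symbol and support in every fit without 1 library, up to 5 called genes of smallest p in each of 25 lists, and all genes assayed in the study. Other list members are named from their list, and *Cav1* and *Krt8* after their values were seen. The members and lists were chosen with earlier results of these data known. Lists are described by counts and medians without a test. Some genes stand on several lists, such as *Dcn*, *Sesn2*, *Igf2* and *Bmf*, so the counts of lists are not independent. Alternatives were DESeq2 1.42.0, RLE size factors, no filter, other fold thresholds, a replicate block, all libraries in 1 fit, each library left out, thinning of Hypoxia Trim AG, and removal of a trend on gene length (span 0.3). The interaction test was also run on artificial counts with the spread of the main fit and a set change in Hypoxia Trim AG. These counts held no other effect of mimic or oxygen. RefSeq sequences (GRCr8) were matched by symbol. Python 3.11.15, pandas 2.3.3, numpy 2.4.6 and matplotlib 3.10.9 were used. The fit of all libraries used 33 libraries, as counts of Normoxia MC were not used here. Values of a few list members are left out of the text.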

Additional observations from a re-analysis of the deposited data

Results flagged for a closer look

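The effect of Trim AG against miR-125b differed between hypoxia and normoxia in 1757 genes by edgeR's test of the interaction. Of these, 119 changed by at least 1.5-fold in opposite directions in both conditions, as *Tnnt2*, *Asns* and *Pfkl* did. The oxygen effect differed between Trim AG and Trim AGU in 3 genes and between Trim AG and Trim A in 175 genes, by a test of that difference.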

How the results depend on the processing

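The signs of all 133 named genes were kept under every alternative run, and 95 of the 123 called stayed called under each of them. With no fold threshold 1772 genes were higher and 1766 lower, and with a threshold of 2-fold 164 and 474. Without each library in turn, 489 to 1032 were higher and 837 to 1513 lower, both highest without Hypoxia Trim AG replicate 1, the fewest higher without Hypoxia Trim AG replicate 2 and the fewest lower without Normoxia Trim AG replicate 2. With DESeq2 804 and 1042 genes were called, with RLE size factors 775 and 1001, without the filter 806 and 920, in the fit of all libraries 564 and 818, and after thinning 664 and 1086.

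With a replicate block in the design, 627 genes were higher and 1026 lower for Trim AG, 15 were called for Trim AGU and 0 for Trim A (edgeR, against 94 without the block, 354 with DESeq2 and 3481 genes at an unadjusted p below 0.05 without the block). Libraries of the same number in different groups correlated by -0.047 to 0.067 in their deviations. Whether they were handled together is not stated in the labels.

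For Trim AGU (150 called) the number was 94 at 2-fold, 1594 with all libraries, 765 with DESeq2 and 11 to 2250 without 1 library, 2250 without Hypoxia Trim AGU replicate 1. For Trim A (94 called) it was 41 at 2-fold, 219 without the filter, 354 with DESeq2 and 0 to 1141 without 1 library, 1141 without Hypoxia Trim A replicate 1. For Trim AG against Trim AGU (3 called) it was 211 with all libraries, 52 with DESeq2 and 1 to 5 without 1 library, and for Trim AG against Trim A (175 called) 56 at 2-fold, 353 with DESeq2 and 85 to 235 without 1 library. With the hypoxia response taken from Plus A, the median interaction of induced genes was 0.038 and of repressed genes -0.098, and 0.037 and -0.079 without Normoxia Plus A replicate 1, an alternative chosen after seeing the data.

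The median of the TGF-beta list ranged from -0.086 to 0.080 without 1 library and was negative without Hypoxia Trim AG replicate 1 (-0.086), Hypoxia Trim AG replicate 2 (-0.015) or Normoxia miR-125b replicate 2 (-0.055). The median of the NF-kB list ranged from -0.12 to 0.063 without 1 library and was positive with RLE size factors (0.0015), without the filter (0.014), with DESeq2 (0.0016), with the length trend removed (0.082), and without Hypoxia Trim AG replicate 2 (0.057), Normoxia miR-125b replicate 1 (0.063) or replicate 3 (0.0014). The cause of these changes was not tested. Depth limits genes near 1 CPM.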
